A study of Drosophila melanogaster with 12 samples.

Results

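The vacuolar proton ATPase (V-ATPase) genes of Drosophila were followed here through a benchmark of programs that detect alternative splicing. The members were the genes of the study's AS and non-AS lists whose symbol starts with Vha. There were 33 of them among 16595 genes, 4 on the AS list (read here as the genes made to differ in splicing between conditions) and 29 on the non-AS list. The libraries were computer-simulated to model S2 cells, an embryonic Drosophila line, and held 3 libraries with PSI knocked down by siRNA at each of the 20%, 40% and 60% levels of splicing change, and 3 control libraries with a non-targeting siRNA. The knockdown libraries of every level share those 3 controls, and no cell was treated. Each gene had a score from up to 6 programs (JUM, MAJIQ, rMATS, Whippet, Cufflinks, MISO), in 18 tables that each pool 3 knockdown and 3 control libraries. No value per library, depth or expression level was available, so neither the spread between replicates nor the cell type could be checked, and no difference below was tested.

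The V-ATPase is a rotary proton pump that acidifies lysosomes, endosomes and secretory vesicles. In insects it also sits in the plasma membrane of epithelia such as the Malpighian tubule, where it energises ion transport. Its soluble V1 sector (subunits A to H) hydrolyses ATP, and its membrane Vo sector (subunits a, c, c'', d and e, with accessory proteins) moves protons. By symbol, 13 Vha genes encode V1 subunits and 20 encode Vo subunits or accessory proteins, since many subunits have several paralogues in the fly. PSI is an RNA-binding splicing factor best known for repressing an intron of the P-element transposase transcript. JUM and MAJIQ work from reads that cross splice junctions, rMATS scores predefined kinds of splicing event, and Cufflinks compares the abundance of whole isoforms.

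The 4 AS-list genes were VhaSFD and Vha68-3 of the V1 sector and VhaPPA1-1 and VhaM9.7-b of the Vo sector. They made up 12.1% of the Vha genes, against 12.1% of all genes on both lists, so the family was not on the AS list more often than genes at large. The AS list took 2 of the 13 V1 genes (15.4%) and 2 of the 20 Vo genes (10%). VhaSFD encodes subunit H, which in yeast is needed for activity of the assembled pump and silences ATP hydrolysis by free V1. Vha68-3 encodes a paralogue of subunit A, which carries the catalytic ATP sites. VhaPPA1-1 encodes subunit c'', a proteolipid of the rotating membrane ring, and VhaM9.7-b a small membrane subunit of the e type.

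The 4 genes differ in what their annotated transcripts allow to change (annotation BDGP6.54 in coordinates that are not those of dm3, the build named in the submitters' processing notes). VhaSFD (FlyBase FBgn0027779, arm 2L, 16722883 to 16727826, minus strand) has 4 transcripts with 3 intron chains, an intron chain being a distinct set of introns. A coding cassette exon of 222 bases, 16725892 to 16726113, is present in 1 of the 4 transcripts and adds 74 codons, giving a protein of 542 residues against 468 without it. Another VhaSFD transcript uses a different last intron, with a donor 11 bases and an acceptor 104 bases away, and encodes 441 residues. The transcript ends of VhaSFD also differ by up to 349 bases at the 3' end. The microRNA gene mir-1006, a mirtron (a microRNA whose hairpin is a whole spliced intron), fills the 64-base intron at 16724795 to 16724858, which all 4 VhaSFD transcripts share.

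VhaPPA1-1 (FBgn0028662, arm 3R, 14902330 to 14904061, minus strand) has 2 transcripts that differ only at the acceptor of the first intron, where the second exon ends at 14903891 or 14903887 on the genome. The 4 bases between these acceptors lie in the 5' untranslated region, since coding begins at 14903872 and runs to lower coordinates, and both transcripts encode the same 212 residues. VhaM9.7-b (FBgn0028663, arm 3L, 21539862 to 21541215, plus strand) has 2 transcripts with the same 2 introns and the same 89 residues. They differ only in the 3' untranslated region, which ends at 21540698 in one and 517 bases further in the other. Vha68-3 (FBgn0032464, arm 2L, 12978786 to 12981293, plus strand) has 1 annotated transcript with 1 intron and 743 residues, so this annotation offers no alternative form of it. It starts 178 bases after the end of its paralogue Vha68-2. The annotated difference thus reaches the protein in VhaSFD, lies in untranslated sequence in VhaPPA1-1 and VhaM9.7-b, and is absent for Vha68-3.

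**Figure D1:**
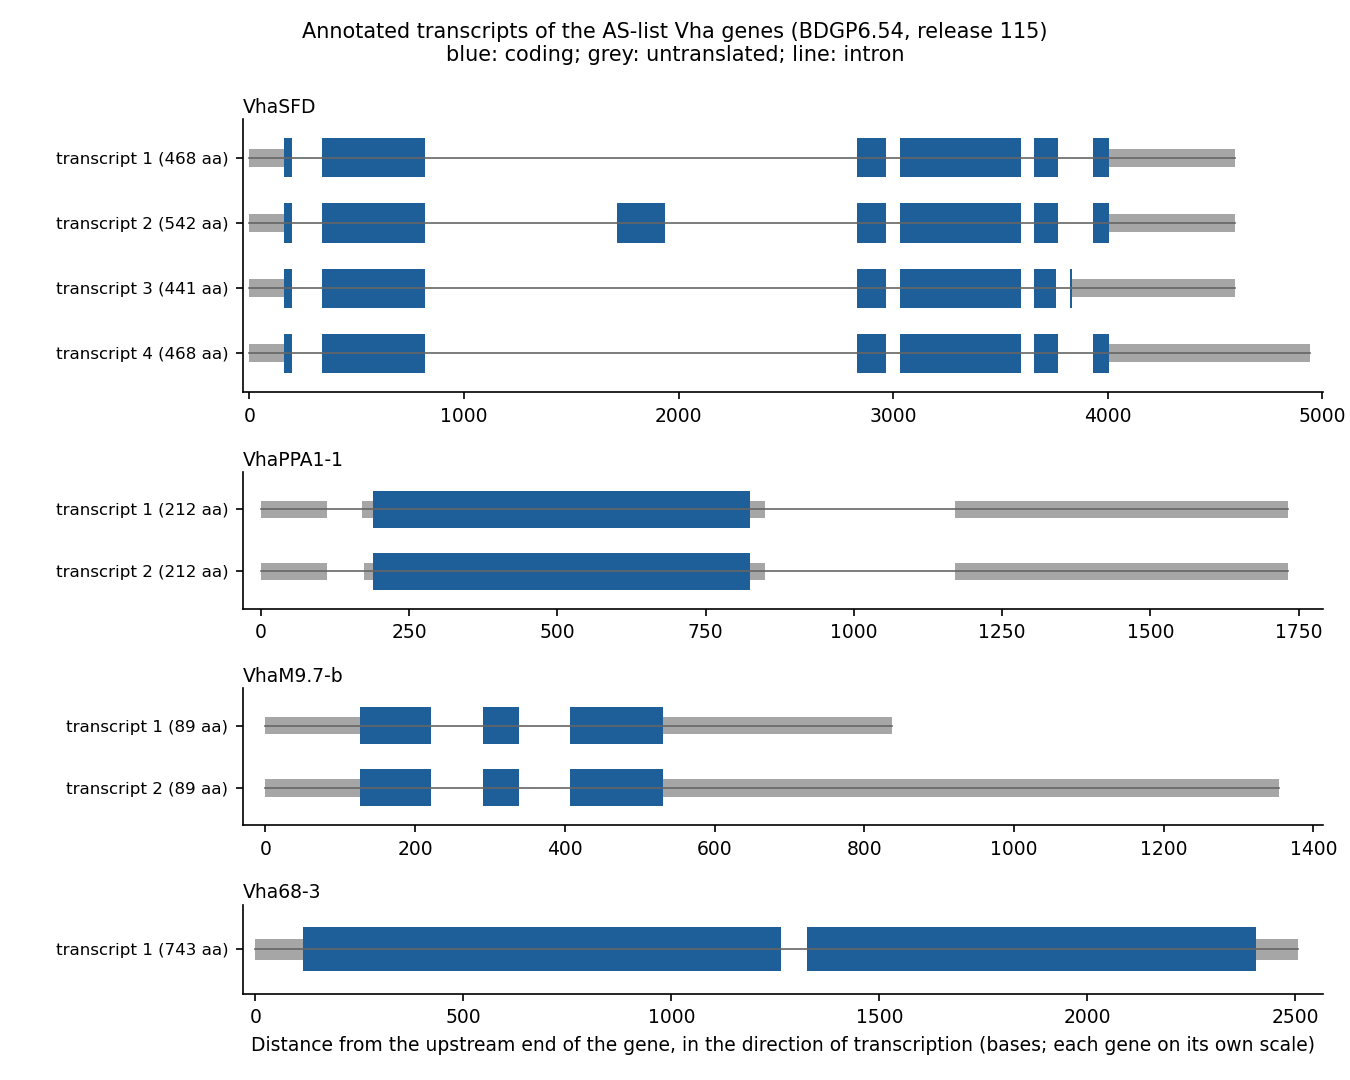
Annotated transcripts of the 4 AS-list Vha genes, drawn in the direction of transcription against distance from the upstream end of each gene (bases, each gene on its own scale). Thick blue boxes are coding, grey boxes untranslated and lines introns. VhaSFD shows the cassette exon of 222 bases in transcript 2, VhaPPA1-1 a shift of 4 bases at the second exon, VhaM9.7-b a longer 3' end in transcript 2, and Vha68-3 a lone transcript.

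A higher score was taken to mean more support for a difference in splicing between knockdown and control. A gene was counted as called at a score of 0.95 or more, or at a Bayes factor of 10 or more for MISO, and a gene without a row in a table was unlisted. At each of the 20%, 40% and 60% levels, 3 of the 4 AS-list Vha genes were called by at least 1 program, namely VhaSFD, VhaPPA1-1 and VhaM9.7-b. Of all AS-list genes, 38.5%, 44.1% and 46.8% were called by at least 1 program at those levels. None of the 29 non-AS-list Vha genes was called by any program at any level, where 1.14%, 1.53% and 1.75% of all non-AS-list genes were. With so low a share among non-AS-list genes at large, the absence of calls in 29 genes is close to the background. Over all 18 tables the 4 AS-list Vha genes were called in 30 of 72 gene-by-table combinations (41.7%), beside 21.7% for the AS list as a whole. These 30 calls were split unevenly, with 13 of them for VhaSFD, 12 for VhaPPA1-1, 5 for VhaM9.7-b and 0 for Vha68-3.

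**Figure D2:**
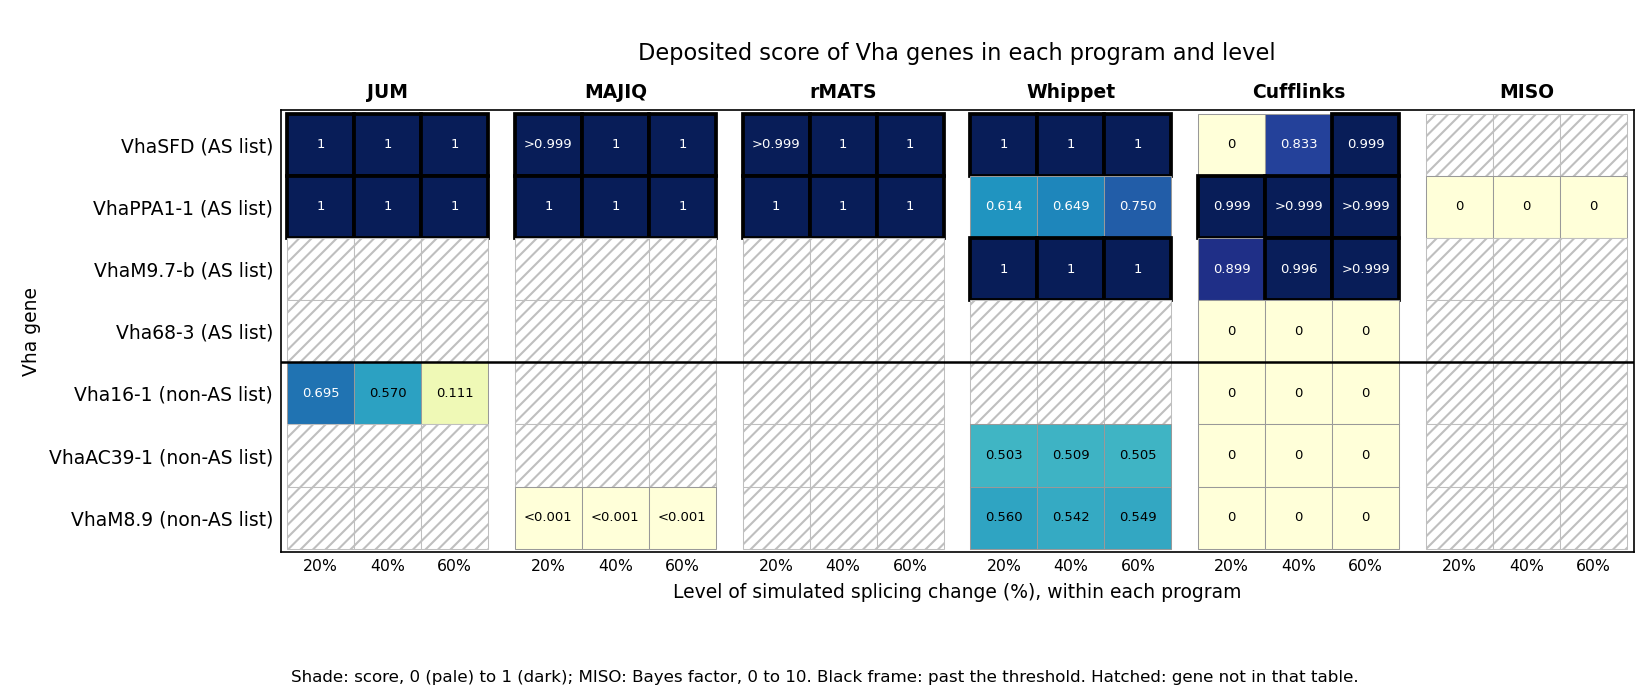
Deposited scores of the 4 AS-list Vha genes and of the 3 non-AS-list Vha genes that a program other than Cufflinks listed, by program and level of splicing change. Shade gives the score (0 to 1, or a Bayes factor of 0 to 10 for MISO), a black frame a score past the threshold and hatching a gene that is not in the table. VhaSFD and VhaPPA1-1 are framed in all 9 tables of JUM, MAJIQ and rMATS, VhaM9.7-b only in Whippet and Cufflinks, and no non-AS-list gene is framed.

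VhaSFD, the subunit H gene with the cassette exon, was called by 4 programs at the lower levels and by 5 at the 60% level. In the authors' deposited table its JUM score was 1 at the 20%, 40% and 60% levels. MAJIQ scored VhaSFD 0.999999989768, 1 and 1 in the authors' deposited table, in the same order of levels. For rMATS the values in the authors' deposited table were 0.999952, 1 and 1. Whippet gave it 1 at each level in the authors' deposited table. These 4 programs thus held VhaSFD at or next to their highest score at each level, as they did many AS-list genes. Of the AS-list genes in the JUM, MAJIQ, rMATS and Whippet tables, 88.1%, 79%, 74.6% and 49.3% scored as high at the 60% level. At the 20% level 68.1%, 13.4%, 51.7% and 31.7% scored as high as VhaSFD or higher. Cufflinks moved instead: in the authors' deposited table its VhaSFD score was 0 at the 20% level, 0.833068 at the 40% level and 0.999 at the 60% level. Only the last was past the threshold. MISO did not list VhaSFD at any level. The set of calls that VhaSFD had at the 60% level (JUM, MAJIQ, rMATS, Whippet and Cufflinks) was shared by 262 AS-list genes (13.1%). Of the 258 of these that could be matched to the annotation, 256 had 2 or more intron chains, as VhaSFD does. Among all matched AS-list genes 41.3% did. Genes of this class were also most of those that JUM listed, 583 among 616 AS-list genes at the 60% level. A call by JUM thus largely limits the set to this class. At the 20% level the set of calls of VhaSFD (the same without Cufflinks) was shared by 116 AS-list genes.

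VhaPPA1-1, the proteolipid gene with acceptors 4 bases apart, was the only Vha gene listed in all 18 tables, and it was called by 4 programs at each level. In the authors' deposited table JUM, MAJIQ and rMATS each gave it a score of 1 at the 20%, 40% and 60% levels. Its Cufflinks score in the authors' deposited table was 0.998743 at the 20% level, 0.999637 at the 40% level and 0.999741 at the 60% level. Each of these was the highest score in that Cufflinks table, shared with other genes: it was held by 91 genes in all for the 20% change and by 415 for the 60% change. Whippet kept VhaPPA1-1 below the threshold, with scores in the authors' deposited table of 0.614, 0.649 and 0.75 at the 20%, 40% and 60% levels. Among the AS-list genes in the Whippet tables, 62.6%, 61.8% and 61% scored as high or higher at those levels. The non-AS-list genes in these tables had medians of 0.633, 0.6335 and 0.634 and 75th percentiles of 0.775, 0.779 and 0.784. The Whippet scores of VhaPPA1-1 stayed below that 75th percentile at each level, so they were not unusual for non-AS-list genes either. Its highest scores in JUM, MAJIQ and rMATS were shared with many genes too. Of the AS-list genes in those tables, 88.1%, 79% and 74.6% had that score at the 60% level. At the 20% level the shares were 68.1%, 9.47% and 42.7%. MISO gave it a Bayes factor of 0 at every level in the authors' deposited table, as it did for 18.8%, 15.3% and 18.1% of the AS-list genes it listed.

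Calls by JUM, MAJIQ, rMATS and Cufflinks without Whippet were rare. Only 3 AS-list genes had exactly this set at the 60% level (VhaPPA1-1, AdoR and CG7420), 7 at the 40% level and 5 at the 20% level. AdoR, which encodes the adenosine receptor, and CG7420 were named after their values were seen. A further comparison chosen after seeing the scores took the AS-list genes whose annotated transcripts differ at 1 donor or acceptor only. In 39 of these, VhaPPA1-1 included, the alternative sites were 10 bases apart or fewer, and Whippet called 28 of the 39 (71.8%) at the 60% level. In the other 85 the sites were further apart, and Whippet called 69 (81.2%). JUM called 28 of the 39 (71.8%) and 66 of the 85 (77.6%) at that level. MAJIQ called 74.4% of the close-site genes and 74.1% of the others, rMATS 64.1% and 56.5%, and Cufflinks 51.3% and 52.9%. By these shares, which count unlisted genes as not called, the programs did not share a direction. For rMATS the direction depends on this. It listed 31 of the 39 and called 25, and it listed 54 of the 85 and called 48. Among listed genes its share was thus lower for close sites. Whippet listed 38 of the 39 and 77 of the 85. MISO called none of either, but it listed only 2 of the 39 and 5 of the 85 at the 60% level. VhaPPA1-1 therefore stood among the 11 close-site genes that Whippet did not call. The difference between close and distant sites was not tested.

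VhaM9.7-b, whose transcripts differ in the length of the 3' untranslated region, was not listed by JUM, MAJIQ, rMATS or MISO at any level. Whippet gave it a score of 1 at the 20%, 40% and 60% levels in the authors' deposited table. Its Cufflinks score in the authors' deposited table was 0.899458 at the 20% level, 0.995788 at the 40% level and 0.999741 at the 60% level, so the call by Cufflinks was present at the upper 2 levels and missed the threshold at the lowest. Calls by Whippet and Cufflinks alone were made for 75 AS-list genes (3.75%) at the 60% level. Of these, 67 (89.3%) had several transcripts and 1 intron chain, the class that holds VhaM9.7-b, against 14.6% of all matched AS-list genes. Unspliced transcripts were not counted as a chain, so this class can also hold genes with spliced and unspliced forms, unlike VhaM9.7-b. Among the 289 AS-list genes of that class Whippet called 203 (70.2%) and Cufflinks 80 (27.7%) at the 60% level, while JUM called 6, MAJIQ 12, rMATS 4 and MISO 0.

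Vha68-3, the subunit A paralogue with 1 transcript, was listed only by Cufflinks, which scored it 0 in the authors' deposited table at every level. It was on the AS list and was called by no program. In this it was like most genes of its structure: of the 674 AS-list genes with 1 intron chain and 1 annotated transcript, 667 (99%) were called by no program at the 60% level. Such genes were 34.1% of the matched AS list.

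**Figure D3:**
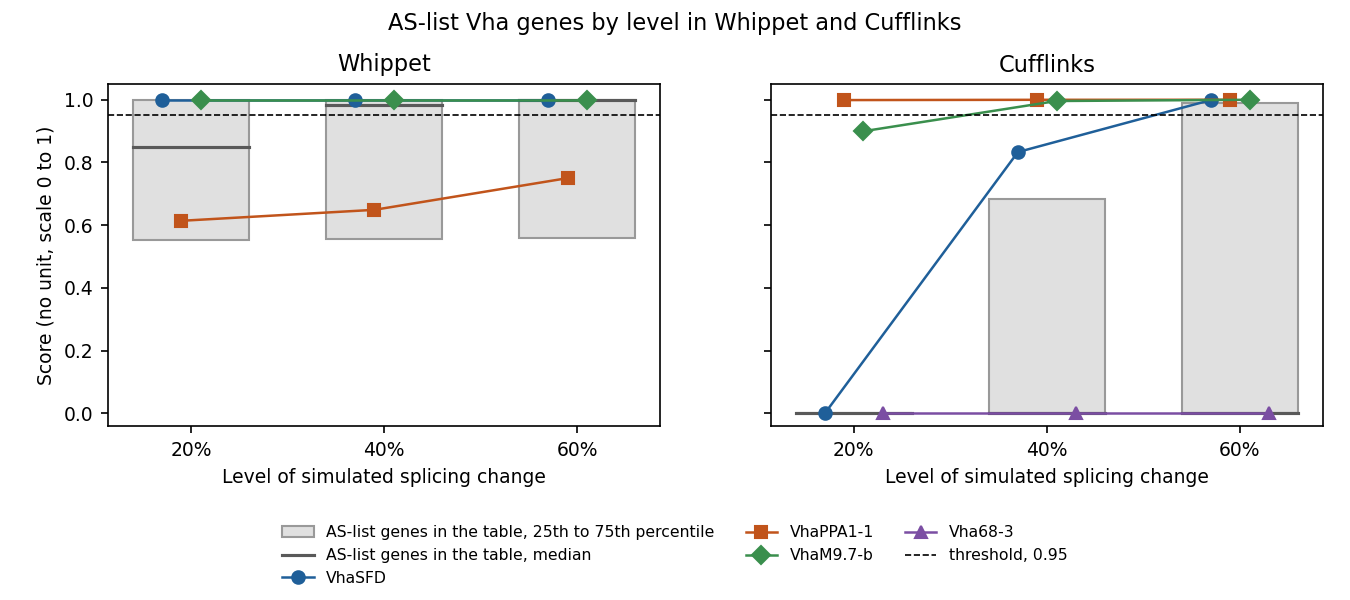
Scores of the AS-list Vha genes in Whippet (left) and Cufflinks (right) against the level of splicing change. Points are single genes joined by lines, grey boxes the 25th to 75th percentile and dark lines the median of all AS-list genes in the table, and the dashed line the threshold of 0.95. VhaSFD and VhaM9.7-b overlie each other at 1 in Whippet, where VhaPPA1-1 runs at 0.614, 0.649 and 0.75. In Cufflinks VhaSFD has 0, 0.833068 and 0.999, VhaPPA1-1 has 0.998743, 0.999637 and 0.999741, and Vha68-3 stays at 0.

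Counted by program, the junction-based programs split the 4 AS-list genes in the same way at every level. JUM listed and called 2 of the 4 (VhaSFD and VhaPPA1-1) at each level. JUM called 38%, 41.6% and 43.3% of all genes in its tables at the 20%, 40% and 60% levels, and 84.3%, 91% and 91.9% of the AS-list genes there. MAJIQ listed and called the same 2 genes, where it called 20.1%, 30.9% and 33% of all genes in its tables and 51.3%, 78% and 82.7% of the AS-list genes there. rMATS also listed and called these 2, where it called 29.8%, 34% and 35.8% of all genes in its tables and 69.3%, 77.4% and 81.9% of the AS-list genes. Whippet listed 3 and called 2 (VhaSFD and VhaM9.7-b) at each level, where it called 21%, 24.7% and 26.4% of all genes in its tables and 45.1%, 52.3% and 56.4% of the AS-list genes. Cufflinks listed all 4 and called 1 at the 20% level, 2 at the 40% level and 3 at the 60% level, adding VhaM9.7-b and then VhaSFD to VhaPPA1-1. Cufflinks called 1.36%, 2.9% and 3.56% of all genes in its tables at those levels, and 10.1%, 21.6% and 26.4% of the AS-list genes. MISO listed VhaPPA1-1 alone and called 0, where it called 0.635%, 1.52% and 5.47% of all genes in its tables and 0.781%, 4.03% and 9.45% of the AS-list genes. At these thresholds Cufflinks was the program whose count of called Vha genes differed between levels. At a 5% false positive rate Whippet counted 2, 2 and 3 AS-list Vha genes at the 20%, 40% and 60% levels and Cufflinks 2, 3 and 3. Both of these counts then differed between levels. JUM still counted the same 2 AS-list genes at that rate, but it also passed the non-AS-list gene Vha16-1 at the 20% and 40% levels only.

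Few non-AS-list Vha genes had a row outside Cufflinks, as was so for non-AS-list genes at large. Cufflinks listed all 29 and scored each 0 at the 20%, 40% and 60% levels, as it did 99%, 98.6% and 98.2% of the non-AS-list genes it listed. Outside Cufflinks 26 of the 29 had no row in any table, and 3 had one at each level. Of all non-AS-list genes, 16.3%, 16.3% and 16.2% had a row outside Cufflinks at the 20%, 40% and 60% levels. The 3 were Vha16-1, VhaAC39-1 and VhaM8.9. Vha16-1, which encodes the main proteolipid c of the membrane ring, was listed by JUM with scores in the authors' deposited table of 0.695357, 0.57044 and 0.111395 at the 20%, 40% and 60% levels. Its score was thus highest at the smallest splicing change. Of the non-AS-list genes in the JUM tables, 27.5%, 38% and 86.9% scored as high or higher at those levels, so none of these values was unusual for that list. VhaAC39-1, which encodes subunit d at the base of the ring and was named after its values were seen, had Whippet scores in the authors' deposited table of 0.503, 0.509 and 0.505, near the lowest that Whippet gave. VhaM8.9 (now ATP6AP2), an accessory protein homologous to the mammalian (pro)renin receptor, had Whippet scores of 0.56, 0.542 and 0.549 in the authors' deposited table. MAJIQ listed it too, with values in the authors' deposited table of 1.11e-301, 1.47e-18 and 3.79e-301 at the 20%, 40% and 60% levels, all next to 0.

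Many of the non-AS-list members are annotated with several forms of their own. Of the 29, 11 had 2 or more intron chains (29.7% of all matched non-AS-list genes did), 4 had several transcripts with 1 intron chain, 5 had 1 spliced transcript and 9 had no intron. Vha100-1, a subunit a gene of the proton path, had 10 transcripts and 9 intron chains. Among its annotated differences are coding cassette exons of 42 bases and 6 bases, and its proteins range between 833 and 855 residues. Vha44, the gene of the peripheral stalk subunit C, had 5 intron chains, with proteins between 388 and 836 residues. Vha68-2, a paralogue of Vha68-3, had 5 intron chains that differ upstream of 1 shared coding region of 614 residues. None of these 3 genes had a row outside Cufflinks. Vha16-1 had 4 intron chains and Vha55, the subunit B gene, had 3. The other 6 (Vha100-2, Vha14-2, Vha26, Vha68-1, VhaAC45 and VhaM9.7-a) had 2 each. The 4 AS-list genes had 3, 2, 1 and 1 intron chains in this annotation. Thus 2 of the 4 had 2 or more, beside 41.3% of all matched AS-list genes. Whether placement on the AS list relates to the number of annotated forms was not tested.

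The paralogues of the AS-list genes were on the non-AS list. Vha68-3 had the fewest intron chains of the 3 subunit A genes, with 1 against 2 in Vha68-1 and 5 in Vha68-2. VhaPPA1-1 had 2, while its paralogue VhaPPA1-2 on the same arm had no intron. VhaM9.7-b had 1 shared chain, while VhaM9.7-a had 2 chains with acceptors 8 bases apart, and VhaM9.7-c and VhaM9.7-d had no intron. VhaM9.7-a, whose close acceptors resemble those of VhaPPA1-1, was listed by Cufflinks alone with a score of 0 at each level in the authors' deposited table.

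**Figure D4:**
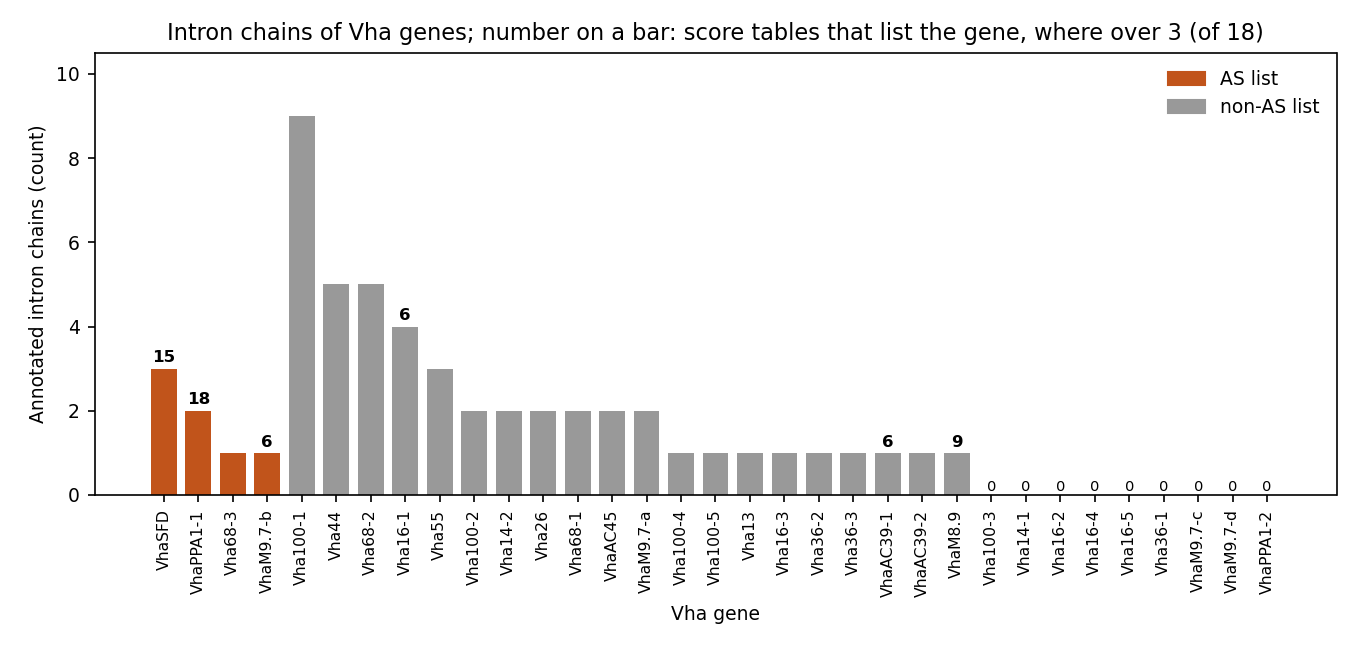
Number of annotated intron chains (bars) of the 33 Vha genes, AS list first. The number on a bar is how many of the 18 score tables list the gene, shown where it is over 3. The bars of Vha100-1 (9), Vha44 (5) and Vha68-2 (5) exceed those of all 4 AS-list genes, while VhaPPA1-1 (18 tables) and VhaSFD (15) are listed most.

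Genes that act with the V-ATPase in assembly, lysosomal acidification and nutrient signalling were looked up as a second list. Of its 20 names 16 were on the study's lists, 5 of them on the AS list (Rbcn-3A, mtd, Mitf, Cp1 and CtsB1), where 12.1% of all genes were. At each level 4 of these 5 were called by at least 1 program, beside 38.5%, 44.1% and 46.8% of all AS-list genes. None of the 11 others was called, which is close to the background of 1.14%, 1.53% and 1.75% for all non-AS-list genes. Mitf encodes a transcription factor of the TFEB family that controls V-ATPase and lysosomal genes, and 3 programs called it at the lowest level and 4 at the others. At the 20% level Mitf had a MAJIQ score of 0.942128683972 in the authors' deposited table, just below the threshold, and at the higher levels it had 1. mtd, which encodes a TLDc-domain protein, was called by 5 programs at the 60% level, and its Cufflinks score in the authors' deposited table was 0, 0.622807 and 0.956106 at the 20%, 40% and 60% levels, the order seen for VhaSFD. Cp1, a cathepsin L gene, was called by JUM, MAJIQ, rMATS and Whippet at each level. CtsB1, a cathepsin B gene, was called by Whippet only. Rbcn-3A, a rabconnectin that promotes assembly of the pump, had 1 intron chain and was called by no program, with Whippet scores of 0.535, 0.534 and 0.54 in the authors' deposited table.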

How the data were processed

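Per the labels, each deposited score table compares knockdown with control at 1 level for 1 of 6 programs. Its rows hold a gene symbol with its score and class, and AS and non-AS genes are also listed separately. STAR 2.5.4b, Cufflinks and the dm3 build appear in the submitters' processing notes, with no roles. Which simulator, depth and program settings were used is not given in the sources used here. Scores were used as deposited by the authors. From their values, those of JUM, rMATS and Cufflinks look like 1 minus a p or q, those of MAJIQ and Whippet like probabilities, and those of MISO like Bayes factors, so 0.95 need not be equally strict across programs. The class labels matched the lists for every gene. Between 8 and 10 genes per rMATS table carry negative scores, 0 of them Vha genes. A value of 1 minus a p or q cannot be negative, so that reading of rMATS fails for these genes.

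Names were matched to the BDGP6.54 annotation by current or unique older symbol for 16333 of 16595 genes (98.4%) and all 33 Vha genes. VhaM8.9 was matched by its older symbol. Transcript differences were computed from exon coordinates, with code tested on made-up transcripts and scores. Only counts are given, since each table pools its libraries and the precision per library is unknown. The members, lists and thresholds were chosen with earlier results of these data known. The rule named every AS-list Vha gene, any non-AS-list Vha gene past a threshold (there was none) and the highest-scoring non-AS-list Vha gene below it in each program. VhaAC39-1 was named after its values were seen, and other Vha genes for their annotated structure. The computations used Python 3.11.15, numpy 2.4.6 and matplotlib 3.10.9.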

Additional observations from a re-analysis of the deposited data

How the results depend on the processing

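With a stricter threshold (0.99, Bayes factor 20), a more lenient one (0.9, Bayes factor 5) or a call by at least 2 programs, no count of Vha genes moved by more than 1.5 times. With 2 programs required, 2 AS-list Vha genes in place of 3 were counted at the 20% level, where only Whippet called VhaM9.7-b. Taking genes whose current symbol starts with Vha replaced VhaM8.9 by CG31030 (now VhaAC45RP) and left 4 AS-list and 29 non-AS-list members. Of 119 alternative values over 44 counts, 113 stayed within 1.5 times and 6 did not, all of these 6 at the 5% false positive rate (the lowest score that at most that share of non-AS-list genes reach). There Cufflinks counted 2 AS-list Vha genes at the 20% level in place of 1, adding VhaM9.7-b. MISO counted 1 in place of 0 at each level, since every gene it lists passes at this rate and VhaPPA1-1 does so with a Bayes factor of 0. Vha16-1 passed in JUM, so 1 of the 29 non-AS-list Vha genes in place of 0 was counted at the 20% and 40% levels. The setting itself lets up to 5% of all non-AS-list genes pass in each program. The lowest JUM scores counted at these levels were 0.115616 and 0.121725. At this rate VhaPPA1-1 also passed in Whippet at the 60% level (lowest score counted 0.731), giving 3 in place of 2, and VhaSFD passed in Cufflinks at the 40% level, giving 3 in place of 2. Cufflinks was then no longer alone in a count that differed between levels. No paired analysis was possible because the tables hold no values per library, and for the same reason no replicate could be left out. The scores carry no depth, so how many reads stand behind a listed or unlisted gene is unknown.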

Other observations

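The mitochondrial F1Fo ATP synthase, the rotary relative of the V-ATPase that makes ATP from a proton gradient, gave 9 genes by symbol. Of these, 2 were on the AS list (ATPsyn-beta and blw), where 12.1% of all genes were. At each level 1 of the 2 was called by at least 1 program, beside 38.5%, 44.1% and 46.8% of all AS-list genes. ATPsyn-beta, the catalytic beta subunit, was scored 1 at every level by both JUM and Whippet in the authors' deposited table. MAJIQ scored it 0.798974930946, 1 and 1 at the 20%, 40% and 60% levels in the authors' deposited table, while rMATS and Cufflinks gave it 0. blw, the alpha subunit gene, was called by no program, with Whippet scores in the authors' deposited table of 0.536, 0.548 and 0.535 at the 20%, 40% and 60% levels and 1 annotated intron chain. sun, the epsilon subunit gene on the non-AS list, was called by Whippet at the 60% level only, with scores in the authors' deposited table of 0.772, 0.787 and 0.959 at the 20%, 40% and 60% levels. It was the only non-AS-list gene of this set called at the 60% level, where 1.75% of all non-AS-list genes were called by at least 1 program. CG31030, the V-ATPase accessory gene that the lists hold under its older name, was on the non-AS list and was not counted among the 33 genes.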
